A study of Mus musculus with 2 samples.

Results

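The cytosolic ribosomal protein genes are the genes whose products, with ribosomal RNA, build the ribosome of the cytoplasm. They were taken by symbol from a table of predicted microRNA target sites: Rpl or Rps followed by digits and at most 1 letter, plus Rpsa, Rplp0, Rplp1 and Rplp2, with Rps6k, mitochondrial and pseudogene symbols left out. This gave 76 of the 15271 genes of the table, 46 of the large subunit (Rpl, Rplp) and 30 of the small subunit (Rps, Rpsa). Their transcripts held 2120 of 1411606 distinct sites and 27 of 6211 enriched Ago2 clusters (0.435%).

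The study mapped Ago2 on RNA in mouse embryonic stem cells by iCLIP, in which bound RNA is crosslinked to the protein by ultraviolet light, trimmed by RNase, immunoprecipitated and sequenced. Both cell lines were clones that expressed a single Argonaute protein from a doxycycline-inducible gene: FLAG-HA-tagged human Ago2 in TT-FHAgo2, and untagged human Ago2 in TT-Ago2, where the tag antibodies have no target. Both were kept in 0.1 µg/mL doxycycline and raised to 2.5 µg/mL for 24 h, so neither line was free of the drug or held the other Argonautes. There was 1 library per line, so no value below has a replicate check, intervals (95%, exact Clopper-Pearson) cover counting error only, and the authors' binomial p compares 2 libraries, not 2 conditions.

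The files used belonged to the tagged library, whose recovered depth was 789000 reads. The untagged library entered through the whole number of reads implied by the authors' enrichment of each cluster, and how that number was scaled was not given in the sources used here. All 8 embryonic stem cell markers examined were listed, at 40.3 to 1655 FPKM (fragments scaled to transcript length and library size, the authors' expression unit). Markers of primitive endoderm and trophectoderm reached at most 0.618 and 9.85 FPKM, with 3 of 5 listed in each and Gata6, Sox17, Cdx2 and Elf5 not listed. Of 5 fibroblast markers, Thy1 and Vim were listed, at 1.89 and 45.0 FPKM, and the collagens Col1a1, Col1a2 and Col3a1 were not.

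Ribosomal protein mRNAs are among the most abundant messages of a growing cell. Most begin with a run of pyrimidines, the 5′ terminal oligopyrimidine motif, through which mTOR signalling sets their translation, and they are short, with small untranslated regions. MicroRNAs guide Argonaute to a target through the seed, bases 2 to 8 of the microRNA, and conserved sites that lower a message lie mostly in the 3′ untranslated region (UTR). Many of these genes also have processed pseudogene copies and carry small nucleolar RNAs in their introns.

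The symbol Rpl24 covered separate stretches of chromosome 16. Of the 163 distinct sites labelled Rpl24, 158 lay in transcript ENSMUST00000050248, listed at 1.49 FPKM, and held 91 of the 92 Rpl24 reads. The other isoforms, at 333 FPKM, had 5 sites with 1 read. Both clusters named Rpl24 lay 36.4 kb downstream of the sites of those abundant isoforms. RefSeq lists Zbtb11, a zinc finger gene, as the next gene, and also as a synonym of Rpl24, whereas the site table has no Zbtb11. The main counts and shares that hold these sites or clusters are given with and without them.

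The clusters over a 7-base or 8-base match to a listed seed give the sequences that the results below turn on. Each is shown 5′ to 3′ on the transcript strand with the seed match in capitals, at mm9 positions, with the reads at the match.
Rpl4, coding sequence, chr9:64025244-64025250, plus strand, 65 reads: GGCACTT
Rpl24 (transcript ENSMUST00000050248), 3′ UTR, chr16:56007912-56007920, plus strand, 23 reads: AGCACTTga
Rplp1, coding sequence, chr9:61762207-61762213, minus strand, 21 reads: CTTGCAT
Rps3, 3′ UTR, chr7:106627446-106627455, minus strand, 8 reads: GGCAGCTgca
Rpl15, 3′ UTR, chr14:19101372-19101378, minus strand, 11 reads: CAGGTGA
Rpl15, 3′ UTR, chr14:19101390-19101397, minus strand, 6 reads: GTGCAATA
Rpl15, 3′ UTR, chr14:19101300-19101306, minus strand, 7 reads: GTGCCAA
Rpl19, 5′ UTR, chr11:97888252-97888258, plus strand, 10 reads: GAGCCTG

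The table gives seed matches without microRNA names. The microRNAs below carry the complementary seed in RefSeq's mature sequences (GRCm38.p6), shown 5′ to 3′ with the seed in capitals; others can share it. The first 5 belong to the miR-290 and miR-302 families of early embryonic cells, whose seeds end in U or C and pair with AGCACTT or GGCACTT.
mmu-miR-290a-3p, for GGCACTT: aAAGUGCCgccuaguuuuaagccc
mmu-miR-291a-3p, for AGCACTT: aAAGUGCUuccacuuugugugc
mmu-miR-294-3p, for AGCACTT: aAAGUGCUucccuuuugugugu
mmu-miR-295-3p, for AGCACTT: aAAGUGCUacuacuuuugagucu
mmu-miR-302b-3p, for AGCACTT: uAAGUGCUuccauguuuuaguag
mmu-miR-300-3p, for CTTGCAT: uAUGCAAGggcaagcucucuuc
mmu-miR-22-3p, for GGCAGCT: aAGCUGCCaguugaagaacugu
mmu-miR-412-3p, for CAGGTGA: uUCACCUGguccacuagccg
mmu-miR-92a-3p, for GTGCAAT: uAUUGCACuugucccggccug
mmu-miR-25-3p, for GTGCAAT: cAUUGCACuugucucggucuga
mmu-miR-96-5p, for GTGCCAA: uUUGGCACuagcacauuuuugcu
mmu-miR-484, for GAGCCTG: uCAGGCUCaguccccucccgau

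Ago2 clusters were found in 18 of the 76 ribosomal protein genes (23.7%, interval 14.7 to 34.8), against 17% of all genes of the table. At the authors' p under 0.01 the share was 11 of 76 (14.5%), against 10.5% of all genes. The interval of the members held the share of all genes at both thresholds. Together the 27 clusters held 348 tagged reads and 13 implied untagged reads. Their median was 8 tagged reads, against 7 over all clusters, and 12 of the 18 genes had 1 cluster. Without Rpl24 the share of genes was 17 of 75 (22.7%).

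**Figure D1:**
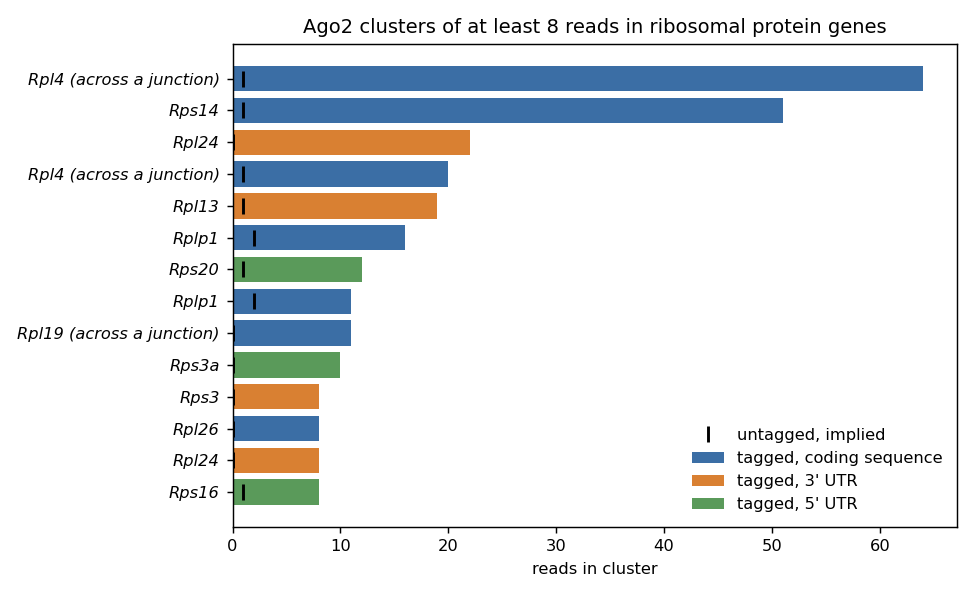
Reads in the 14 enriched clusters of ribosomal protein genes that held at least 8 tagged reads, the median of all 27. Bars give tagged reads, coloured by transcript region, and black ticks the implied untagged reads, both on the same linear axis; the longest bars are an Rpl4 cluster with 64 tagged reads and an Rps14 cluster with 51, and no untagged tick lies above 2.

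Expression was far higher in ribosomal protein genes than over the table, with a median of 609 FPKM (10.2 to 2021) against 4.59. In a bulk lysate, fewer cells with a message and less message per cell cannot be told apart. Beside other genes of the same expression, the share of ribosomal protein genes with a cluster was lower in the ranges that held most of them, with overlapping intervals. Between 300 and 1000 FPKM, 11 of 45 members (24.4%, interval 12.9 to 39.5) and 40 of 111 other genes (36.0%, 27.1 to 45.7) had a cluster. At 1000 FPKM and above it was 5 of 17 (29.4%, 10.3 to 56.0) and 11 of 20 (55%, 31.5 to 76.9). Between 100 and 300 FPKM it was 1 of 7 members and 172 of 487 other genes (35.3%). Some of these other genes had no site in an mRNA region. Of those that had one, 40 of 91 (44.0%, 33.6 to 54.8) had a cluster between 300 and 1000 FPKM. At 1000 FPKM and above it was 11 of 18 (61.1%, 35.8 to 82.7), and between 100 and 300 FPKM 171 of 446 (38.3%). The median number of predicted sites was 21 per member and 25 per other gene between 300 and 1000 FPKM, and 14 and 25.5 at 1000 FPKM and above (20 and 56 over all members and all genes), and its part in the result was not tested.

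Rpl4, which encodes a protein lining the exit tunnel of the large subunit, had the most reads of any member and 4 clusters, all in coding sequence. Its highest cluster crossed a splice junction between 64025153 and 64025535 on chromosome 9 (mm9, plus strand). It held 64 tagged reads and 1 implied untagged read, a ratio of 64 with a counting interval of 11.1 to 2567, at the authors' exact binomial p of 1.789e-18. It ranked 1 of the 991 clusters in coding sequence by tagged reads. A second junction cluster at the same splice site, from 64025273 to 64025582, held 20 tagged reads and 1 untagged, although its peak height was 5. The remaining clusters, at 64023469 to 64023516 and 64024845 to 64024886, held 7 tagged reads each, with 0 and 1 untagged.

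The reads of Rpl4 were concentrated in the exon upstream of that junction. Summed over its 53 distinct sites it held 343 reads, 29.5% of the 1162 reads summed over all member sites. A read that covers several sites counts at each of them in these sums. The 4 Rpl4 clusters held 98 tagged reads in all. The GGCACTT shown above held 65 reads, the 8mer GAGCTGTA just upstream of it 69, and the matches GCTGCT and CCTCAAGA just downstream 65 each. These sites lie within a read's length of each other and share reads. GAGCTGTA ranked 1 and the others tied at rank 2 among 372916 sites in coding sequence. Among the 442 coding GGCACTT sites that of Rpl4 ranked 1, and among the 1940 of all regions 2, where a supported one had a median of 2 reads. By the authors' log2 coverage, which is lowered for high expression, it stood at 2.04 and at rank 123 of 37270 supported coding sites.

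The crosslink peak of the Rpl4 junction cluster, with 21 events, lay on the first base of its GGCACTT. Over clusters of other genes, a peak fell on the first base of a GGCACTT in 65 of 179 matches (36.3%) and of an AGCACTT in 70 of 300 (23.3%), and this was the commonest distance for both. The peak of the larger Rpl24-labelled cluster lay 3 bases before its AGCACTT. In Rpl15 it lay 2 bases before the first base of GTGCCAA, 10 after that of GTGCAATA, and 14 after or 9 before that of CAGGTGA, which 2 clusters cover. In Rps3 it lay 7 bases before GGCAGCT. In Rplp1 the peaks of the overlapping clusters lay 12 bases after and 22 bases before the first base of CTTGCAT.

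Other large subunit genes had fewer reads. Rplp1, a protein of the acidic stalk that recruits elongation factors, had overlapping clusters at 61762197 to 61762247 and 61762165 to 61762213 on chromosome 9 (mm9, minus strand), with 16 and 11 tagged reads and 2 untagged reads each. Both covered its CTTGCAT, whose 21 reads ranked 66 among coding sites. Rpl13 had 19 tagged reads and 1 untagged in its 3′ UTR, over a 6mer, TGCAAT, with 19 reads. Rpl15 was the one member with 3 clusters in the 3′ UTR, of 7, 6 and 6 tagged reads and no untagged read; the last 2 overlapped. Its CAGGTGA ranked 2 by reads among the 1124 such sites in 3′ UTRs.

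The other named large subunit genes had at most 11 tagged reads in a cluster. Rpl19 had a junction cluster of 11 tagged reads and no untagged read (at least 3.67-fold over a floor of 3 counts per cluster), whose GAGCCTG lay in the 5′ UTR part. Rpl26, a protein near the exit of the tunnel, had 8 against 0 in coding sequence with a crosslink peak of 5 events, on an isoform listed at 0.739 FPKM. Rpl39, a small protein in the wall of the exit tunnel, had 6 against 0 in its 5′ UTR. Rpl8, near the peptidyl transferase centre, had clusters of 6 and 5 against 0, and Rpl14 1 of 5 against 0, all in coding sequence. The larger cluster labelled Rpl24 held more reads than any of these, and the pair held 22 against 0 (at least 7.33-fold, exact binomial p 2.384e-07) and 8 against 0.

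Of the small subunit, Rps14, a protein of the platform, held the largest cluster. It lay in coding sequence at 60938093 to 60938165 on chromosome 18 (mm9, plus strand), with 51 tagged reads and 1 untagged (ratio 51, counting interval 8.75 to 2053, exact binomial p 1.177e-14). It ranked 2 among coding clusters, after Rpl4, and 18 crosslink events fell on 1 position. No site of the table lay under it: the 11 distinct Rps14 sites were in the 5′ UTR and held 0 reads.

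The other small subunit clusters were smaller. Those in 5′ UTRs were in Rps20, a protein of the subunit's head (12 against 1), Rps3a, near the mRNA exit (10 against 0), and Rps16, also of the head (8 against 1). Rps3, a protein of the mRNA entry channel, had 8 against 0 in the 3′ UTR, over GGCAGCT, and 7 against 1 in coding sequence. Rps10, another protein of the head, had 6 against 0 across a junction. At this depth 5 reads against 0 was the smallest cluster in the authors' list, so a smaller difference was not detectable.

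By region, 15 of the 27 clusters lay in coding sequence (55.6%, interval 35.3 to 74.5), 8 in 3′ UTRs (29.6%) and 4 in 5′ UTRs (14.8%). Of all clusters in mRNA, 20.2% lay in coding sequence and 77.7% in 3′ UTRs. Clusters of other genes at 300 FPKM and above were nearer to the members, with 82 of 177 in coding sequence (46.3%, interval 38.8 to 54.0) and 43.5% in 3′ UTRs. A 3′ UTR cluster was found in 5 members (6.58%), against 11.6% of all genes. Without Rpl4 the coding share was 11 of 23 (47.8%). Without the Rpl24-labelled clusters it was 15 of 25 (60%), 6 of 25 lay in 3′ UTRs (24%), and 4 of 75 members had a 3′ UTR cluster (5.33%).

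**Figure D2:**
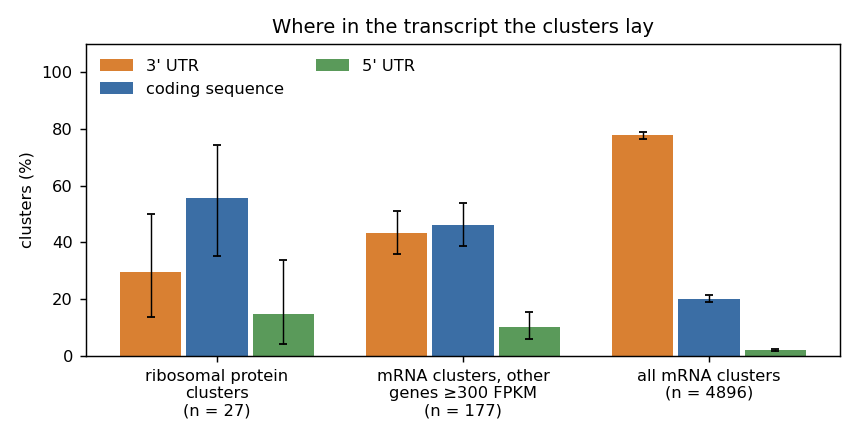
Share of clusters in the 3′ UTR, coding sequence and 5′ UTR for ribosomal protein genes, for other genes listed at 300 FPKM or above, and for all clusters in mRNA. Bars are percent of clusters and lines exact 95% binomial intervals; the coding bar is 55.6% for ribosomal protein genes, 46.3% for other highly expressed genes and 20.2% overall.

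Fewer member clusters were free of untagged reads. No untagged read was implied in 16 of 27 (59.3%, interval 38.8 to 77.6), against 85.6% of all clusters and 134 of 177 (75.7%) of those of other genes at 300 FPKM and above. In 3′ UTRs it was 7 of 8, and in coding sequence 7 of 15 (46.7%, interval 21.3 to 73.4), where other genes at 300 FPKM and above had 61 of 82 (74.4%). Coding clusters made up 8 of the 11 with an untagged read and held 10 of the 13 untagged reads. Some of these lay at the same place: the overlapping Rplp1 clusters held 2 each, and the Rpl4 junction clusters at 1 splice site held 1 each. Without the Rpl24-labelled clusters, 14 of 25 (56%) had no untagged read, with 5 of 6 in 3′ UTRs.

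Of the 23 clusters that did not cross a junction, 7 (30.4%, interval 13.2 to 52.9) overlapped a 7mer or 8mer of a listed seed, against 34.2% of all clusters. They were 5 of 8 in 3′ UTRs, 2 of 11 in coding sequence and 0 of 4 in 5′ UTRs. All clusters had such a match in 46.3%, 30.5% and 33.3% of cases in these regions. The 2 in coding sequence were the overlapping Rplp1 clusters over 1 CTTGCAT, and 3 of the 5 in 3′ UTRs were in Rpl15. Without the Rpl24-labelled clusters it was 6 of 21 (28.6%), and 4 of 6 in 3′ UTRs.

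At the level of predicted sites, 317 of 2120 member sites had a read (15.0%, interval 13.5 to 16.5), against 8.91% of all sites and 12.1% of sites in mRNA regions of other genes. At least 1 such site was present in 53 of 76 members (69.7%), against 67.5% of all genes. Sites of 1 gene can overlap and share reads, so these intervals are too narrow. Support was 22.9% in 5′ UTRs, 14.4% in coding sequence and 12.3% in 3′ UTRs, whereas other genes had 8.71%, 9.98% and 14.0%. The order by region differed from that of other genes as a whole, but other genes at 1000 FPKM and above had 65.1%, 46.3% and 37.8%, the order of the members. Without Rpl4 the members' coding share was 105 of 862 (12.2%), next to 12.3% in 3′ UTRs. Without transcript ENSMUST00000050248 the 3′ UTR share was 87 of 800 (10.9%) and the coding share 125 of 811 (15.4%).

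At equal expression member sites were covered less often in coding sequence and 3′ UTRs, where most intervals above 30 FPKM did not overlap. Below 30 FPKM, all 18 member 3′ UTR sites with a read, of 171 sites, lay in transcript ENSMUST00000050248. So did 6 of the 14 coding sites with a read in that range. Between 300 and 1000 FPKM, 48 of 398 coding sites of members had a read (12.1%, interval 9.03 to 15.7) and 506 of 1250 of other genes (40.5%, 37.7 to 43.3). In 3′ UTRs it was 27 of 192 (14.1%, 9.48 to 19.8) and 416 of 1315 (31.6%, 29.1 to 34.2). At 1000 FPKM and above, the 3′ UTR shares were 4 of 66 (6.06%) and 37 of 98 (37.8%). In 5′ UTRs the intervals overlapped in the 4 ranges from 30 FPKM upwards, with 27.5% and 36.7% between 300 and 1000 FPKM. Below 30 FPKM members had 18 of 142 (12.7%, 7.69 to 19.3) and other genes 7.30%. These ranges follow the FPKM of each site's own transcript. The 4 members with no isoform at 30 FPKM or above had no read at a 5′ UTR site. The supported 5′ UTR sites of the lowest range thus lay on less expressed isoforms of members whose highest isoform was above it. In coding sequence at 1000 FPKM and above, members had 65 of 187 (34.8%) and other genes 156 of 337 (46.3%). Without Rpl4 and Rpl8 the members' share was 15 of 112 (13.4%, interval 7.69 to 21.1).

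**Figure D3:**
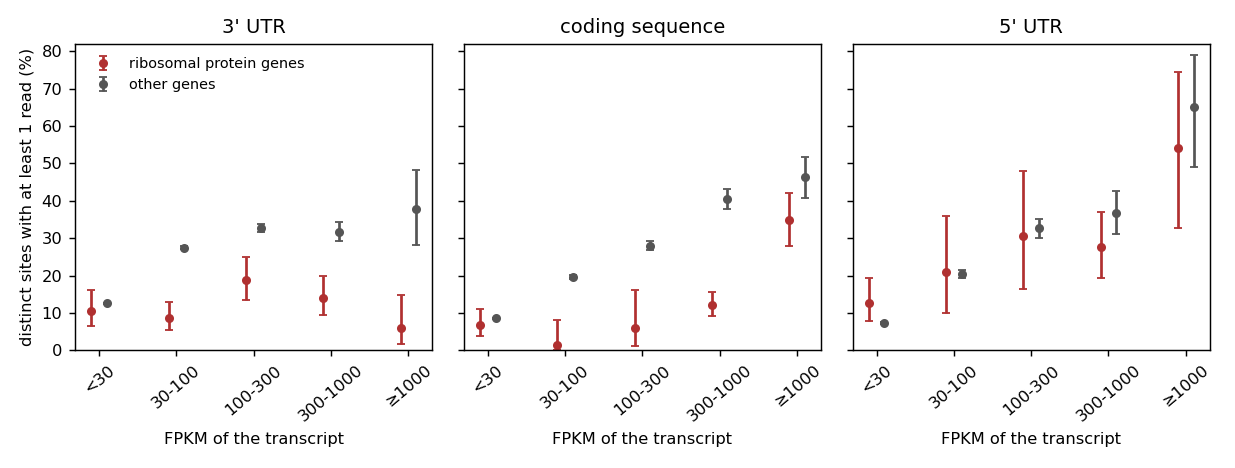
Percent of distinct predicted sites with at least 1 read, by listed FPKM of the transcript, in 3′ UTRs, coding sequence and 5′ UTRs. Red points are ribosomal protein genes and grey points other genes, with exact 95% binomial intervals. In 3′ UTRs and coding sequence red lies below grey in each range, for example 12.1% against 40.5% of coding sites between 300 and 1000 FPKM. Below 30 FPKM the red points include the Rpl24-labelled transcript ENSMUST00000050248, which held all 18 supported 3′ UTR sites of that range.

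Weighed by expression, the members took a small part of the reads. They held 0.150% of distinct sites and 1162 of 279522 reads summed over them (0.416%), but 5.44% of sites when each site is weighted by its FPKM. A read over several sites counts at each in these sums. The weighting takes reads to rise in proportion to FPKM. In 3′ UTRs of other genes, 12.5% of sites had a read below 30 FPKM and 37.8% at 1000 FPKM and above. The weighted share was not computed for other abundant genes. A trait of abundant messages in general therefore cannot be told apart here from one of the members. In 3′ UTRs they held 0.141% of reads and 3.41% of weighted sites, in coding sequence 1.06% and 8.82%, and in 5′ UTRs 1.81% and 9.10%. Without Rpl4 the share of reads over all sites was 0.293%, and without transcript ENSMUST00000050248 it was 0.383%.

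Sites of listed seeds were set beside the table's other 8mers. In 3′ UTRs, 13.7% of listed and 10.7% of other member sites had a read, against 16.5% and 11.5% in other genes. In coding sequence the member values were 14.9% (interval 11.7 to 18.7) and 13.9% (10.9 to 17.3), against 11.5% and 8.44% in other genes. In 5′ UTRs they were 25.8% and 17.8%, against 10.1% and 6.97%. In each region the 2 member intervals overlapped. By length, listed 8mers of members were supported in 11 of 55 cases (20%), 7mers in 39 of 230 (17.0%) and 6mers in 134 of 820 (16.3%). Other genes had 13.0%, 12.8% and 9.86%, but over all regions, with sites outside mRNA included, whereas all member sites lay in mRNA regions. Without transcript ENSMUST00000050248 the 3′ UTR values were 12.5% for listed and 9.14% for other sites.

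By number of supported member sites, the first 5 listed seed families were as follows. TGCTGCT and its 6mer had 11 of 50 sites with a read (22%), with 98 reads of which 65 were at Rpl4; in other genes 18.5% were supported. GTGCCTT had 9 of 33 (27.3%, against 16.4%), GAGCCTG 8 of 43 (18.6%, against 10.6%), ACCGAGC 8 of 18 (44.4%, interval 21.5 to 69.2, against 14.3%) and GTCTTCC 8 of 43 (18.6%, against 16.0%). With 8 to 11 supported sites each, the intervals of all but ACCGAGC held the share in other genes. The ACCGAGC reads lay in 8 members, with 16 of 34 reads at Rplp1. The family of AGCACTT and GGCACTT, whose matches head the sequences shown above, had 2 of 12 member sites with a read (16.7%, interval 2.09 to 48.4), against 45.0% in other genes. These 2 were the Rpl4 site and the site labelled Rpl24.

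Members of similar expression differed widely. Rpl8, at 1979 FPKM, had a read at 25 of 26 sites, with at most 6 reads at any. Rpl4, at 2021 FPKM, had 26 of 53 sites with a read, and at most 69. Rpl13a had 16 of 20 with at most 2 reads and no cluster, and Rpl14 11 of 15 with at most 5. The 5 members with most reads summed over sites were Rpl4 (343), Rpl24 (92), Rpl15 (84), Rpl8 (72) and Rplp1 (69), together 56.8% of the summed reads. Of the 92 labelled Rpl24, 91 were on transcript ENSMUST00000050248. The abundant Rpl24 isoforms had 1 read, so Rpl24 stands among these members only through that transcript. Rpl8, Rpl13a and Rpl14 thus had reads at most of their listed sites, whereas those of Rpl4 and Rplp1 lay mostly at 1 place. Rpl13a had no listed site in coding sequence, and all Rpl14 sites lay there. Reads along the whole of the Rpl13a and Rpl14 messages could therefore not be seen. Rpl13a, Rpl3, Rpl5, Rpl9 and Rps18 were chosen for naming after their values were seen.

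**Figure D4:**
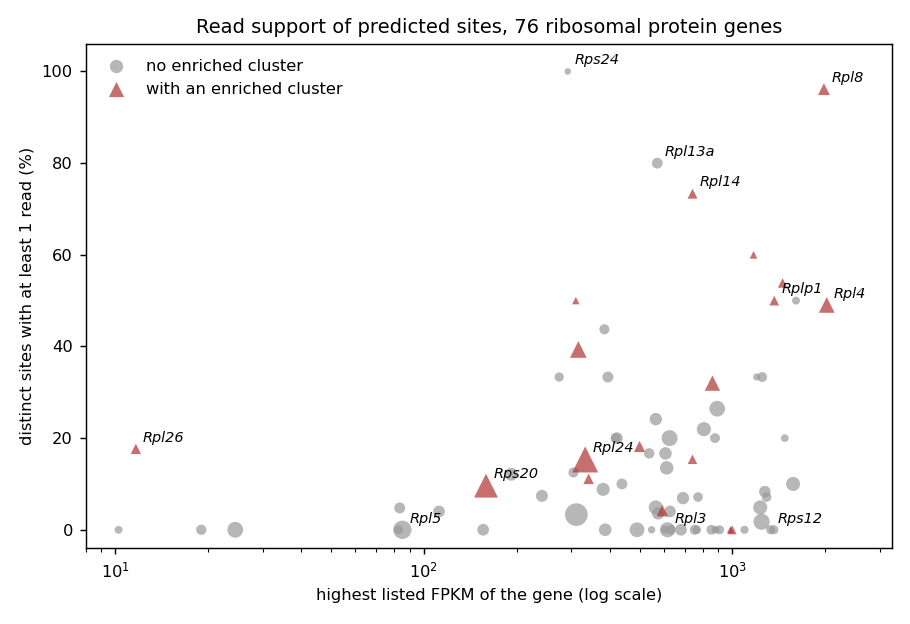
Percent of distinct sites with at least 1 read in each of the 76 ribosomal protein genes, against the highest listed FPKM of the gene on a log axis. Triangles are genes with an enriched cluster, circles genes without one, and marker area grows with the number of sites; Rpl8 and Rpl4 lie side by side at 1979 and 2021 FPKM with 25 of 26 and 26 of 53 sites supported, and many circles lie at 0.

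At the other end, 23 members had no read at any site, of which 15 were listed at 500 FPKM or above. The share of genes with a read, 69.7% of members, was near the 67.5% of all genes. Between 300 and 1000 FPKM it was 31 of 45 members and 84 of 111 other genes. At 1000 FPKM and above it was 14 of 17 and 13 of 20. Members without a read had a median of 12 sites, and those with one 24. Rpl3, which helps shape the peptidyl transferase centre, had 0 of 48 sites at 616 FPKM, which allows a share of up to about 6.25%. Such limits are 3 counts over the number of sites, not exact intervals, and treat sites as independent. Rpl5, which binds 5S ribosomal RNA, had 0 of 76, which allows up to 3.95%, and Rpl9 0 of 46. Among the members of highest expression without a cluster were Rps21 (1607 FPKM, 3 of 6 sites with a read), Rps29 (1478, 1 of 5), Rps26 (1361, 0 of 12) and Rps12 (1330, 0 of 11). Rps18 had 0 of 7 at 1094 FPKM. Of the members, 37 had a read but no cluster, and Rps14 and Rps16 had a cluster but no read at a listed site.

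**Figure D5:**
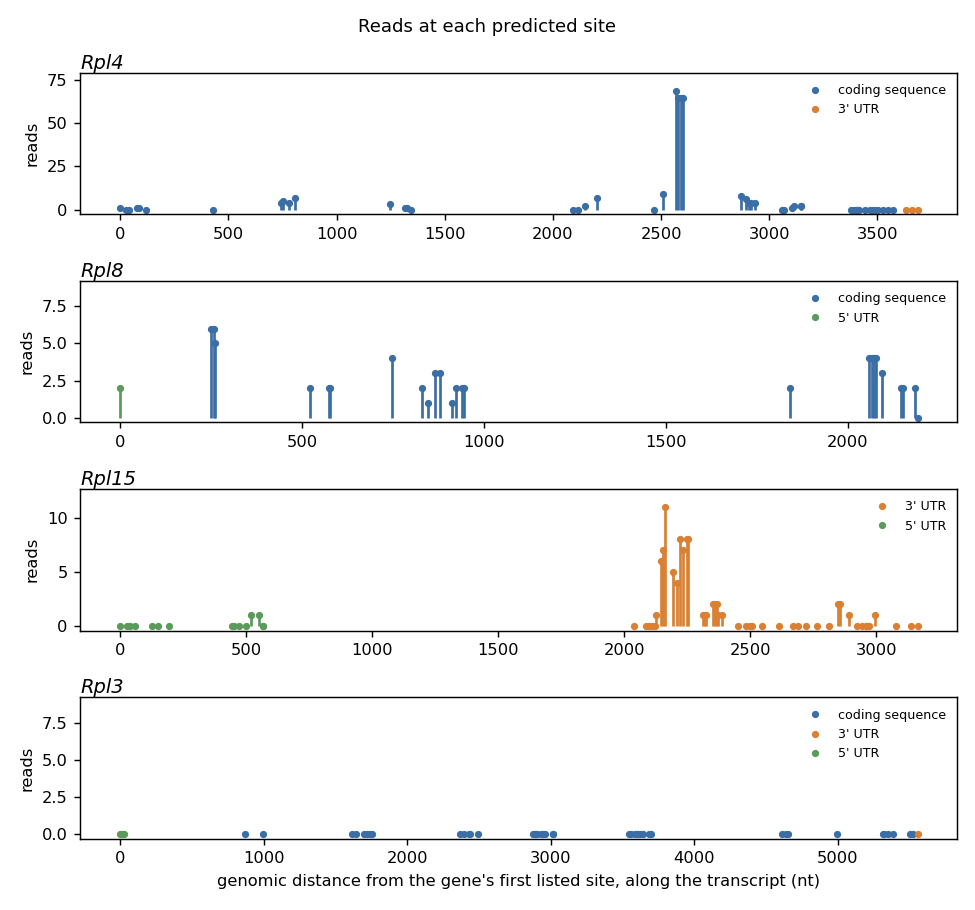
Reads at every distinct predicted site of Rpl4, Rpl8, Rpl15 and Rpl3 along the gene, as genomic distance in nucleotides from the first listed site in the direction of transcription. Each point is a site, coloured by region, with its reads on the y axis, whose range differs between genes; Rpl4 rises to 69 reads in 1 exon, Rpl8 has reads in each stretch of sites and at most 6, Rpl15 has at most 1 read at a 5′ UTR site and up to 11 in the 3′ UTR, and Rpl3 has 0 throughout.

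Near-identical copies make the reads of these genes uncertain, since how the authors treated reads that align to several places was not given in the sources used here. RefSeq names from 0 to 24 pseudogene copies ("-ps") per member. The median was 2 in the 53 members with a read and 2 in the 23 without, 1 in members with a cluster and 2 in the others. Rpl4 and Rpl8 had 0 such copies, Rpl3 had 2 and Rps12 had 23. A small nucleolar RNA gene lay inside 28 members, of which 8 had a cluster (28.6%), and 10 of the other 48 did (20.8%). Sites had a read in 12.6% and 16.6% of cases in these groups. The part of copies in the number of reads was not tested.

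Of the large subunit, 10 of 46 genes had a cluster, 18 clusters in all, and 246 of 1389 sites had a read (17.7%). Of the small subunit, 8 of 30 had one, 9 in all, and 71 of 731 sites had a read (9.71%). The median FPKM was 542 in the large and 870 in the small subunit, and the reads summed over sites were 968 against 194. Over genes the medians of supported sites were 12.3% and 6.01%. Without Rpl4 the large subunit had 220 of 1336 sites with a read (16.5%) and 625 reads, and without Rpl24 as well 195 of 1173 (16.6%) and 533 reads. No test was made of this difference.

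Genes that share the translation machinery without being ribosomal proteins were set beside them. Of 20 other transcripts known or expected to carry a terminal oligopyrimidine motif, 7 had a cluster (35%, interval 15.4 to 59.2), with a median of 324 FPKM and 20.7% of sites with a read. Gnb2l1, the Rack1 scaffold on the small subunit, had 5 clusters, all in coding sequence, with 40 tagged reads and 3 untagged. Eif4b, an initiation factor, had 5, all in the 3′ UTR, with 54 and 1. The elongation factors Eef1b2 and Eef2 had 3 each, with 31 and 19 tagged reads and 0 untagged. Pabpc1 (879 FPKM), Eef1g (714) and Tpt1 (560) had none.

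Of 25 nucleolar ribosome biogenesis genes found, of 26 listed, 6 had a cluster (24%, interval 9.36 to 45.1), with a median of 54.3 FPKM and 15.3% of sites with a read. Polr1b, a subunit of RNA polymerase I, had 2 with 10 tagged reads, and Ddx21, an RNA helicase, 2 with 12. Gnl3 had 1 with 9 and Nop56 1 with 6, and none of these held an untagged read. Ncl (965 FPKM), Nop58 (132), Fbl (101) and Dkc1 (97.9) had none. The intervals of both lists held the 23.7% of the ribosomal protein genes.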

How the data were processed

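Files of the tagged library were used; the untagged library entered through the authors' enrichment values. Bowtie, TopHat, mm9 and NCBIM37 are named by the submitters' processing notes, without roles; cluster caller, treatment of multiply aligned reads, treatment of PCR copies and source of expression were not given in the sources used here. Per the file headers, the cluster list (authors' p-value under 0.05) gives peak height, a signal in whole reads, and text joining tagged reads, log2 enrichment and a binomial p, and crosslink positions and heights. Taking tagged reads plus 1 over some whole untagged number plus 1 gave the authors' log2 within 0.005 for each of the 6211 clusters, and that number was used. The deposited site table gives a PhastCons score, coverage in rpm, isoform FPKM of at least 0.1 and a log2 coverage adjusted for expression. All rpm values (100%) were whole multiples of 1.27 within 0.001, so whole reads were recovered; with 1 library no count test could be made.

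Each position, strand and sequence counted as 1 distinct site, which removed 22927 repeats; also left out were 12225 7mers and 25025 6mers that a longer match contains, and 170165 other 8mers that overlap a listed seed. The 50 listed 7mers form 48 families, and 966 further 8mers extend none of them. Reads of a gene or family are sums over its distinct sites, so a read over several sites counts at each. A gene's FPKM is its highest listed isoform, except where sites are set in ranges by their own transcript. Cluster overlap was at least 1 nt on the same strand, over 5993 clusters not crossing a junction and not wider than 200 nt. Symbols were matched to RefSeq for 76 of 76 members. Shares were computed with Python 3.11.15, pandas 2.3.3 and scipy 1.17.1, and the scripts were tested on simulated data. Members and lists were chosen with earlier results of these data known. Named were members with a cluster, the 5 of highest FPKM without one, the 5 with most reads, clusters over a listed 7mer or 8mer, the 5 families with most supported sites, and from other lists up to 4 genes with most clusters and 4 of highest FPKM without one; some of these are not reported here.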

Additional observations from a re-analysis of the deposited data

Results flagged for a closer look

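Of clusters with a ribosomal protein name that the choice of genes left out, 5 held tagged reads and no implied untagged read. The cluster named RPLP2-PS1, in an intron at 76732013 to 76732070 on chromosome 12 (mm9, minus strand), held 22 tagged reads (at least 7.33-fold over a floor of 3 counts, authors' exact binomial p 2.384e-07) and a crosslink peak of 5 events. The clusters named RPL7L1 (3′ UTR), RPL13;GM20388 (intron), RPL22-PS1 (pseudogene) and RPL14-PS1 (pseudogene) held 5 tagged reads each. Whether reads of the pseudogene clusters came from the parent messages was not tested.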

How the results depend on the processing

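Of 33 alternatives, 21 stayed within the interval of the value reported and 12 moved. The share of genes with a cluster was 14.5% at the authors' p under 0.01 and 6.58% for 3′ UTR clusters only (10.5% and 11.6% of all genes). At 10 FPKM or more it stayed at 23.7%, but 29% of all genes then had a cluster, so the members went from above to below. The share of sites with a read was 7.88% at 2 reads or more (2.96% of all sites), 1.56% by overlap with a cluster (0.564%), 12.3% in 3′ UTRs only (14%) and 17.5% for listed 7mers and 8mers only (12.8%); at 10 FPKM or more it was 15.8%, against 20.2%. Clusters over a seed match were 69.6% once 6mers counted (53% of all clusters). The share of reads was 0.683% at 10 FPKM or more, 0.374% over every entry as listed, 0.389% over listed seeds only, 0.383% without transcript ENSMUST00000050248 and 0.293% without Rpl4. Each setting changes by its construction which features enter or what counts as support; no other cause was tested. Alternatives without Rpl24, its transcript or Rpl4, in mRNA regions only and with junction clusters were added after seeing the data. No paired analysis was possible because each line has 1 library. Depth limits clusters to 5 or more reads, and most members have few sites.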

Other observations

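The 76 mitochondrial ribosomal protein genes, a list added after seeing the data, had a cluster in 12 (15.8%, interval 8.43 to 26.0), 15 clusters in all, with a median of 34.4 FPKM, and 358 of 3257 sites with a read (10.99%).

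In coding sequence the median PhastCons conservation score of member sites was 0.996 with a read and 0.998 without. In 3′ UTRs the medians were 0.0533 and 0.0148, and in 5′ UTRs 0.0868 and 0.0111. In other genes the medians were 0.995 and 0.989 in coding sequence, 0.119 and 0.0256 in 3′ UTRs, and 0.185 and 0.0658 in 5′ UTRs. Of the 105 member 3′ UTR sites with a read, 18 lay in transcript ENSMUST00000050248, and the medians without it were not computed.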
